A study of Mus musculus with 9 samples.

Results

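Genes of the major histocompatibility complex (MHC), and the genes that prepare peptides for it, were compared between 2 diets in periprostatic fat, an adipose depot that surrounds the mouse prostate. The group takes in every gene whose symbol begins with H2-, the prefix of the mouse MHC, and 13 further genes: B2m, Tap1, Tap2, Tapbp, Psmb8, Psmb9, Psmb10, Nlrc5, Erap1, Cd74, Ciita, Cd80 and Cd86. A gene entered where a probe set carried its symbol and no other, which gave 46 of the 22180 genes measured. These were 34 H2 symbols and 12 of the 13 others. Another 11 symbols were found only on probe sets that name several genes and have no value here: Cd74, H2-D1, H2-Q2, H2-Q6, H2-Q7, H2-Q8, H2-Q9, H2-T3, H2-T9, H2-T18 and H2-T22. H2-K1 was therefore the one classical class I chain with a value. By the RefSeq annotation of the mouse assembly GRCm38.p6, 45 of the 46 were located, 38 of them on chromosome 17, and 5 were annotated as pseudogenes (H2-K2, H2-Ea, H2-Bl, H2-T10 and H2-Q5).

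The mice were 9 male C57BL/6J animals from The Jackson Laboratory, and each gave 1 array of total RNA from its frozen fat. In the high fat group, 5 mice ate a diet with 60 kcal% fat (D12492i), and in the low fat group, 4 mice ate one with 10 kcal% fat (12450Bi). Feeding started when the mice were 6 weeks old and lasted 12 weeks, so that they were killed at an age of 18 weeks. Values are log2 expression on Affymetrix arrays, and differences are high fat minus low fat.

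MHC class I molecules show peptides from inside the cell to CD8 T cells. Their heavy chain pairs with the light chain beta-2 microglobulin (B2m), and their peptides are cut by the immunoproteasome, carried by the transporter Tap1-Tap2, trimmed by Erap1 and loaded with the help of tapasin (Tapbp). MHC class II molecules are dimers of an alpha and a beta chain that show peptides from endosomes to CD4 T cells, and are known mainly from dendritic cells, macrophages and B cells. Nlrc5 and Ciita are the transactivators of the class I and the class II genes. The nonclassical genes code for related proteins with narrower expression or other tasks.

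Some properties of the libraries touch the results. Any 2 arrays correlated at 0.973 to 0.996 across genes. High fat mice 1 and 2 had the lowest array medians, 6.454 and 6.453, with 6.479 to 6.502 on the other arrays. Their array SDs were the widest, 1.87 and 1.871, against 1.83 to 1.845. A fit without both mice was therefore added. The mean of 5 smooth muscle markers was 11.1 in low fat mouse 2 and between 8.74 and 9.14 in the other mice, and the mean of 5 skeletal muscle markers was 8.82 in high fat mouse 1 and between 6.57 and 7.74 elsewhere. The adipocyte markers, which check the labelled tissue, had means of 11.97 to 12.41, and 4 of 5 fell, beside 9.13% of all genes. All 5 macrophage markers (Adgre1, Cd68, Csf1r, Fcgr1 and Itgax) rose, beside 12.4% of all genes. Their rises ran from 0.83 for Csf1r to 3.13 for Itgax, with Cd68 next to Itgax at 1.87. The mean of the 5 was 10.53 to 11.28 in high fat and 9.1 to 9.53 in low fat mice. None of the 5 T cell or the 4 measured B cell markers passed the test, beside 21.5% of all genes. The B cell marker Ms4a1 (-1.13, limma adjusted p = 0.0503) did pass without high fat mouse 1 (-1.3) or 4 (-1.29) or low fat mouse 2 (-1.36). Of the 6 measured dendritic cell markers Batf3 alone passed (0.24), beside 21.5% of all genes. It missed the threshold without any one of high fat mouse 2 (0.23), 3 (0.23) or 4 (0.23) or low fat mouse 1 (0.20), 2 (0.21) or 4 (0.26). The dendritic cell marker Flt3 (0.32, limma adjusted p = 0.0528) passed without high fat mouse 5 (0.36) or low fat mouse 1 (0.37) or 2 (0.37). The means of 5 prostate and seminal vesicle genes lay between 5.11 and 5.28. In whole tissue, a change in the number of cells of a type and a change in RNA per cell cannot be told apart.

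Of the 46 genes, 8 differed between the diets by limma at an adjusted p of 0.05, which is 17.4% beside 21.5% of all genes. The 6 that rose (background 12.4% of all genes) were the class II chains H2-Aa, H2-Ab1, H2-Eb1 and H2-DMb1 and the nonclassical class I genes H2-M2 and H2-Q10. The 2 that fell (background 9.13%) were the nonclassical class I gene H2-M9 and H2-Ke6, which lies in the complex but codes for no MHC chain. In 7 of the 46 genes no high fat value lay within the low fat range or the reverse, beside 20.7% of all genes. These 7 were the called genes other than H2-Eb1. The median difference was 0.01 over the 46 genes and 0.0 over all genes. The share of the group that was called was thus no higher than that of all genes.

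**Figure D1:**
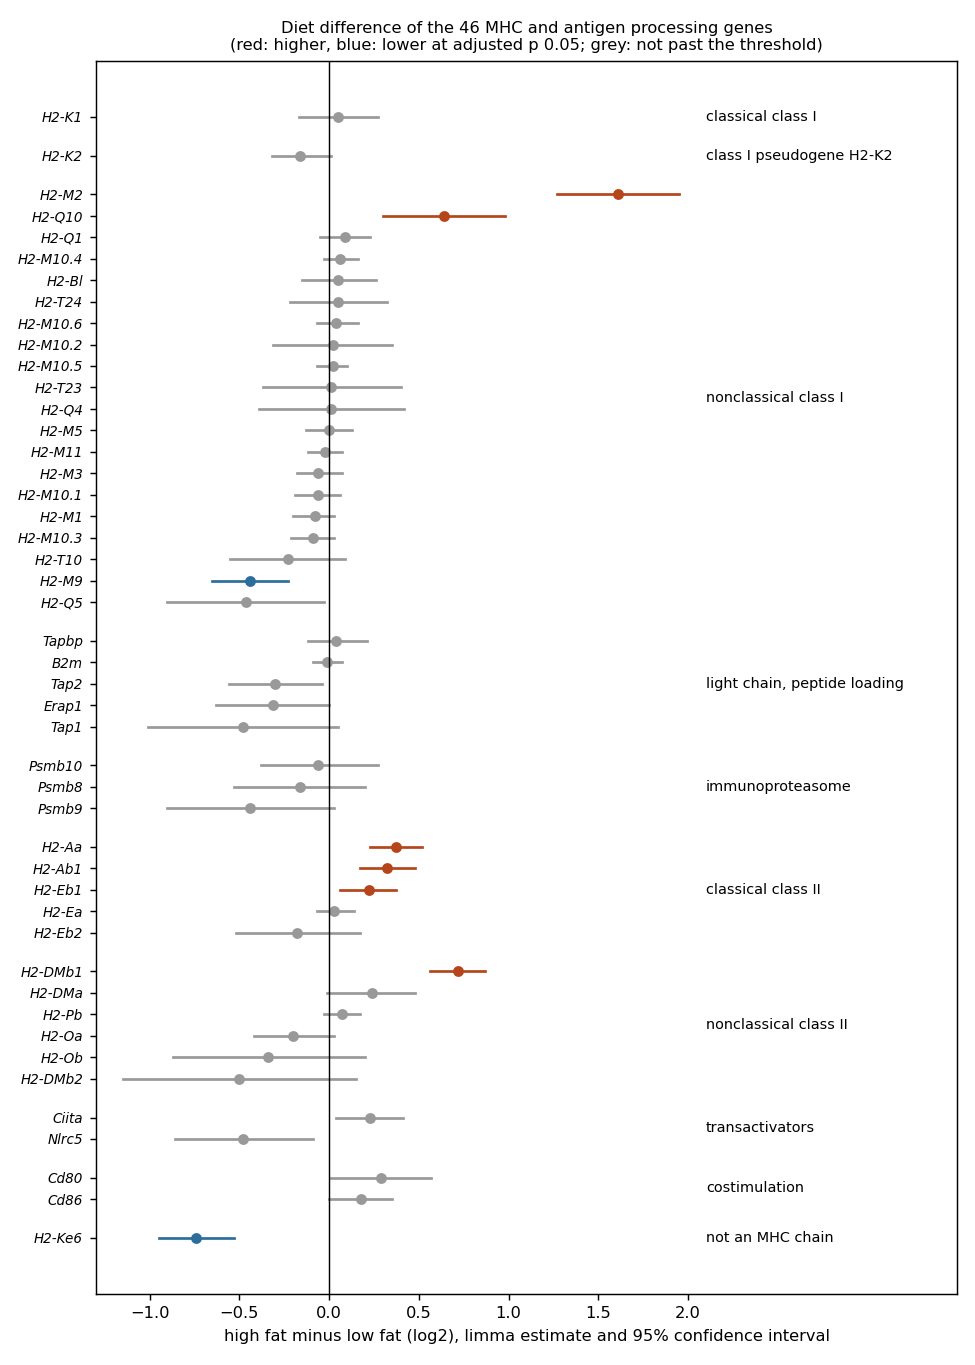
Difference between diets (high fat minus low fat, log2; limma estimate with its 95% confidence interval) of the 46 genes, in blocks by class; red points are higher and blue points lower at an adjusted p of 0.05. The coloured points are the classical class II chains H2-Aa, H2-Ab1 and H2-Eb1 with H2-DMb1, the nonclassical class I genes H2-M2, H2-Q10 and H2-M9, and H2-Ke6, whereas all points of the loading and immunoproteasome genes are grey.

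The classical class II chains rose in 3 of 5 genes, beside 12.4% of all genes, with a median difference of 0.22. H2-Aa and H2-Ab1, the alpha and beta chains of the H2-A dimer, rose 1.29-fold and 1.25-fold. H2-Aa read 12.36, 12.34, 12.35, 12.35 and 12.19 in high fat mice 1 to 5 and 12.02, 12.06, 11.95 and 11.77 in low fat mice 1 to 4 (0.37 ± 0.06 SE, limma adjusted p = 0.00267). The highest low fat value lay below the lowest high fat value, and low fat mouse 4 was the lowest. H2-Ab1 read 12.78, 12.76, 12.83, 12.76 and 12.61 in the high fat mice and 12.46, 12.57, 12.42 and 12.23 in the low fat mice (0.32 ± 0.07 SE, limma adjusted p = 0.00875). The order of the low fat mice was the same as for H2-Aa, with mouse 2 highest and mouse 4 lowest. With high fat mice 1 and 2 left out together H2-Ab1 missed the threshold (0.31, limma adjusted p = 0.0573).

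H2-Eb1, the beta chain of the H2-E dimer, rose by less and its groups overlapped. Its values were 11.63, 11.47, 11.70, 11.57 and 11.47 in high fat mice and 11.39, 11.47, 11.36 and 11.18 in low fat mice (0.22 ± 0.07 SE, limma adjusted p = 0.0485). It missed the threshold without any one of 7 mice: high fat mouse 1 (0.2), 2 (0.24), 3 (0.19) or 4 (0.22), or low fat mouse 1 (0.23), 3 (0.22) or 4 (0.16). H2-Ea, the alpha chain of that dimer, is not made in this strain, and its probe set read 5.84 to 6.01 in high fat and 5.85 to 5.97 in low fat mice. H2-Eb2, a second beta chain gene, had a difference of -0.18 (95% confidence interval -0.52 to 0.17).

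Of the 6 nonclassical class II genes, 1 rose, beside 12.4% of all genes. H2-DM, a dimer of H2-DMa with H2-DMb1 or H2-DMb2, exchanges the peptide in class II molecules, and H2-DO, a dimer of H2-Oa and H2-Ob, inhibits it. H2-DMb1 read 7.08, 7.07, 6.93, 6.98 and 6.98 in high fat mice and 6.47, 6.19, 6.14 and 6.37 in low fat mice. It rose 1.64-fold (0.72 ± 0.07 SE, limma adjusted p = 0.000144), with a gap between the groups, and kept its call in each of the 18 alternative settings and left-out mice. In low fat mice H2-DMb1 lay below the median of each array, and whether it was above background there could not be determined. The adjacent H2-DMb2 read 8.50, 7.83, 7.37, 8.69 and 8.46 in high fat mice and 9.11, 8.13, 8.98 and 8.48 in low fat mice (-0.50, 95% confidence interval -1.15 to 0.15, limma adjusted p = 0.273). Its groups overlapped, with the lowest values in high fat mice 2 and 3, and without mouse 3 the difference was -0.30. Their partner H2-DMa differed by 0.24 (95% confidence interval -0.01 to 0.48, limma adjusted p = 0.167), and by 0.11 without low fat mouse 4.

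H2-Ob read 8.13, 7.48, 7.51, 8.03 and 7.45 in high fat mice and 8.73, 7.59, 8.20 and 7.71 in low fat mice (-0.34, limma adjusted p = 0.378). H2-Oa differed by -0.20 (limma adjusted p = 0.212). Without low fat mouse 1 the differences were -0.11 for H2-Ob, -0.09 for H2-Oa and -0.03 for H2-Eb2. H2-Ob, H2-Oa, H2-DMb2 and H2-Eb2 were all highest in that mouse, where the mean of the 4 measured B cell markers (Ms4a1, Cd79a, Cd79b and Pax5) was highest too. That mean was 9.54, 8.26, 9.29 and 8.57 in low fat mice 1 to 4 and 8.59, 7.71, 7.38, 8.58 and 8.06 in high fat mice 1 to 5. All 4 B cell markers had a negative difference, from -1.13 to -0.43. H2-Aa, H2-Ab1 and H2-DMb1, in contrast, were higher in every high fat mouse, as was the macrophage marker mean. The part that B cell, macrophage and dendritic cell content had in these results was not tested. The remaining gene of the class, H2-Pb, differed by 0.07 (95% confidence interval -0.03 to 0.17).

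**Figure D2:**
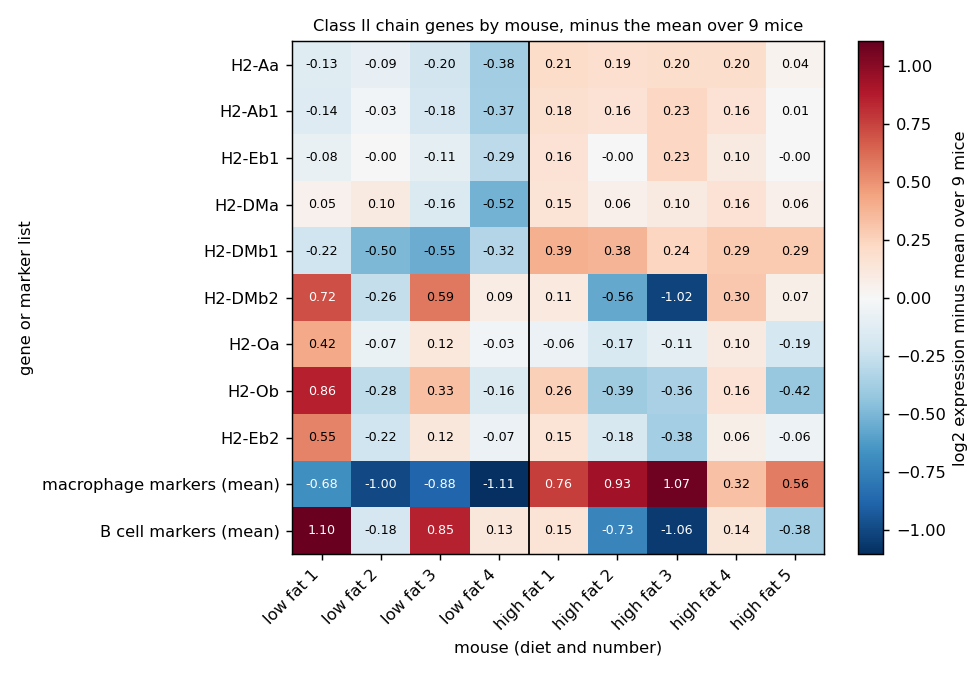
Class II chain genes and 2 marker means in each mouse, as the log2 value minus the mean over the 9 mice (colour and printed number); columns are mice, with low fat at the left of the line and high fat at the right. H2-Aa, H2-Ab1 and H2-DMb1 are below the mean in all low fat mice and above it in all high fat mice, like the macrophage mean, whereas H2-DMb2, H2-Ob and H2-Eb2 are highest in low fat mouse 1, like the B cell mean.

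The upstream DNA of these genes is shown because class II promoters carry a known pair of elements, the X box, bound by the RFX complex, and the Y box, bound by NF-Y, through which Ciita acts. Promoter windows of the RefSeq table (GRCm38.p6) matched 33 of the 46 genes, and the 250 bases before the start were searched on both strands. H2-Ab1 had no entry. The 150 bases before the start are printed 5′ to 3′ on the strand of the gene. Capitals mark the Y box core GATTGG, read as CCAATC where it lies on the reverse strand. They also mark the X box where its start GCAACNG or its end CNNATGATG matched, which overlap in H2-Eb1. Neither X box pattern occurs in the H2-Aa window, which says only that those letters are not in it. An X box with other letters would stay in lower case.
H2-Aa (chr17:34287824-34287973, minus strand): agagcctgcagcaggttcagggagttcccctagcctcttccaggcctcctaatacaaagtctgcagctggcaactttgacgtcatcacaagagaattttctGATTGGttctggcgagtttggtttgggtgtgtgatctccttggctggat
H2-Eb1 (chr17:34305717-34305866, plus strand): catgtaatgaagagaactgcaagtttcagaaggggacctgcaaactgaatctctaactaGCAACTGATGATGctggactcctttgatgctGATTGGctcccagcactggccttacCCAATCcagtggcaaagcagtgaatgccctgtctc
H2-DMb1 (chr17:34153041-34153190, plus strand): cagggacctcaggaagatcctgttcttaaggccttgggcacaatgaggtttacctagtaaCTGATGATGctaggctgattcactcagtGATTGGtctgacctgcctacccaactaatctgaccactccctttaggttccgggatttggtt
H2-Ob (chr17:34238755-34238904, plus strand): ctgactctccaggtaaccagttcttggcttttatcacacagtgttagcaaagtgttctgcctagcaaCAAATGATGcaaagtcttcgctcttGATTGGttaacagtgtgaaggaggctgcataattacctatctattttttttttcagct

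The 33 genes have 36 windows in the table, since H2-DMa, H2-K1 and H2-M9 have 2 each. The Y box core was present in 25 of the 36, of 24 genes, beside 14.6% of all 32851 windows in the table. These matches are not independent. Tap1 and Psmb9 share the same Y box site, the 2 windows of H2-M9 overlap, and the H2-M10 genes are a family with similar windows. The X box start was in 3 of 36 (10.2% of all windows) and the X box end in 5 of 36 (2.31% of all windows). The letters of the X box end were chosen after these windows had been viewed, so their count is a description. The same holds for the next count, whose span of 15 to 20 bases takes in the spacings of these genes. It is no measure of how particular the pair is to them. An X box end followed by a Y box on the printed strand, with 15 to 20 bases between them, occurred in 4 windows of the table (0.0122%), those of H2-DMb1 and H2-DMb2 (19 bases), H2-Eb1 (18 bases) and H2-Ob (16 bases). These 4 genes had differences of 0.72, -0.50, 0.22 and -0.34 in that order, and of these H2-DMb1 and H2-Eb1 passed the test and the other 2 did not. The windows of H2-DMb1 and H2-DMb2 were identical at 174 of 221 aligned bases (78.7%). A match is a description of the letters and no evidence of binding.

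The classical class I chain H2-K1 did not pass the test. It read 12.65, 12.66, 12.43, 12.39 and 12.47 in high fat mice and 12.52, 12.74, 12.31 and 12.32 in low fat mice, with a difference of 0.05 (95% confidence interval -0.17 to 0.27, limma adjusted p = 0.792). The highest value was that of low fat mouse 2, and the groups overlapped throughout. The interval leaves room for a change of the size seen in H2-Eb1. H2-K2, its pseudogene neighbour, differed by -0.16 (limma adjusted p = 0.171), and by -0.09 without low fat mouse 2.

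Among the 20 nonclassical class I genes, 2 rose and 1 fell, beside 12.4% and 9.13% of all genes. Their median difference was 0.01, with a range from -0.46 to 1.61. H2-M2, a gene of the M region whose function is little known, had the largest difference of the 46. It read 8.25, 8.15, 7.54, 7.61 and 7.71 in high fat mice and 6.30, 6.43, 6.14 and 6.11 in low fat mice, a rise of 3.04-fold (1.61 ± 0.15 SE, limma adjusted p = 0.000126). Every high fat mouse was above every low fat mouse, and high fat mice 1 and 2 were highest. With those 2 mice left out H2-M2 kept its call. In low fat mice H2-M2 lay below the median of each array, and whether it was above background there could not be determined. Its upstream window is printed for comparison with the class II windows. None of the motifs searched occurs in it, so it is all in lower case, and this says only that those letters are not in this window.
H2-M2 (chr17:37483555-37483704, minus strand): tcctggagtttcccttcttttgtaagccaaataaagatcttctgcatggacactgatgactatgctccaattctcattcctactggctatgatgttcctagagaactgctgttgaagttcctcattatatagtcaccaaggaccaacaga

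H2-Q10, a class I protein known as secreted by the liver, read 9.27, 9.01, 9.14, 9.0 and 8.96 in high fat mice and 7.87, 8.60, 8.64 and 8.62 in low fat mice (0.64 ± 0.15 SE, limma adjusted p = 0.0139). The groups did not overlap, and low fat mouse 1 lay far below the others. Without that mouse the difference was 0.45 (limma adjusted p = 0.00269). A second probe set of H2-Q10 differed in the other direction (-0.24), and the mean of both did not pass (0.2, limma adjusted p = 0.271). Without high fat mice 1 and 2 the call was lost as well (0.6, limma adjusted p = 0.0755). The rise of H2-Q10 thus holds for 1 of 2 probe sets, and genes of the Q region are near-identical copies whose signals a probe set may not separate.

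H2-M9, one of the M region genes known from the vomeronasal organ, fell 1.36-fold. It read 6.32, 6.59, 6.34, 6.22 and 6.27 in high fat mice and 6.62, 6.68, 7.01 and 6.82 in low fat mice (-0.44 ± 0.09 SE, limma adjusted p = 0.00835). The groups were separated by a small gap, between high fat mouse 2 and low fat mouse 1. The mean level of H2-M9 stood at percentile 43.3 of all genes. In all high fat mice but mouse 2 it lay below the median of the array. Whether H2-M9 was above background there could not be determined. The related H2-M1, H2-M11 and the 6 genes H2-M10.1 to H2-M10.6 did not pass. The median of the H2-M10 family was 0.02, with differences from -0.09 to 0.06. Their values lay between 4.81 and 5.68, near the lowest value of the table, 4.41, and whether such dim genes were above background could not be determined.

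The widely expressed nonclassical genes did not pass. H2-T23, which codes for Qa-1, the ligand of the inhibitory receptor CD94-NKG2A, differed by 0.01 (95% confidence interval -0.37 to 0.40), and H2-Q4 by 0.01 (-0.39 to 0.42). H2-M3, which presents peptides that begin with formyl methionine, differed by -0.06 (-0.18 to 0.07). H2-T24 differed by 0.05. The annotated pseudogenes H2-T10 and H2-Q5 differed by -0.23 and -0.46 (limma adjusted p = 0.3 and 0.131). H2-Q5 passed the threshold with high fat mice 1 and 2 left out (-0.69). Its second, dimmer probe set differed by -0.22, and the mean of both did not pass (-0.34, limma adjusted p = 0.155). The second, dimmer probe set of H2-Q4 differed by -0.12. H2-T23, H2-Q4 and H2-Q5 were highest in low fat mouse 2, at 9.59, 10.53 and 9.25. The other genes of the class, H2-Q1, H2-Bl and H2-M5, differed by 0.09, 0.05 and -0.00.

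**Figure D3:**
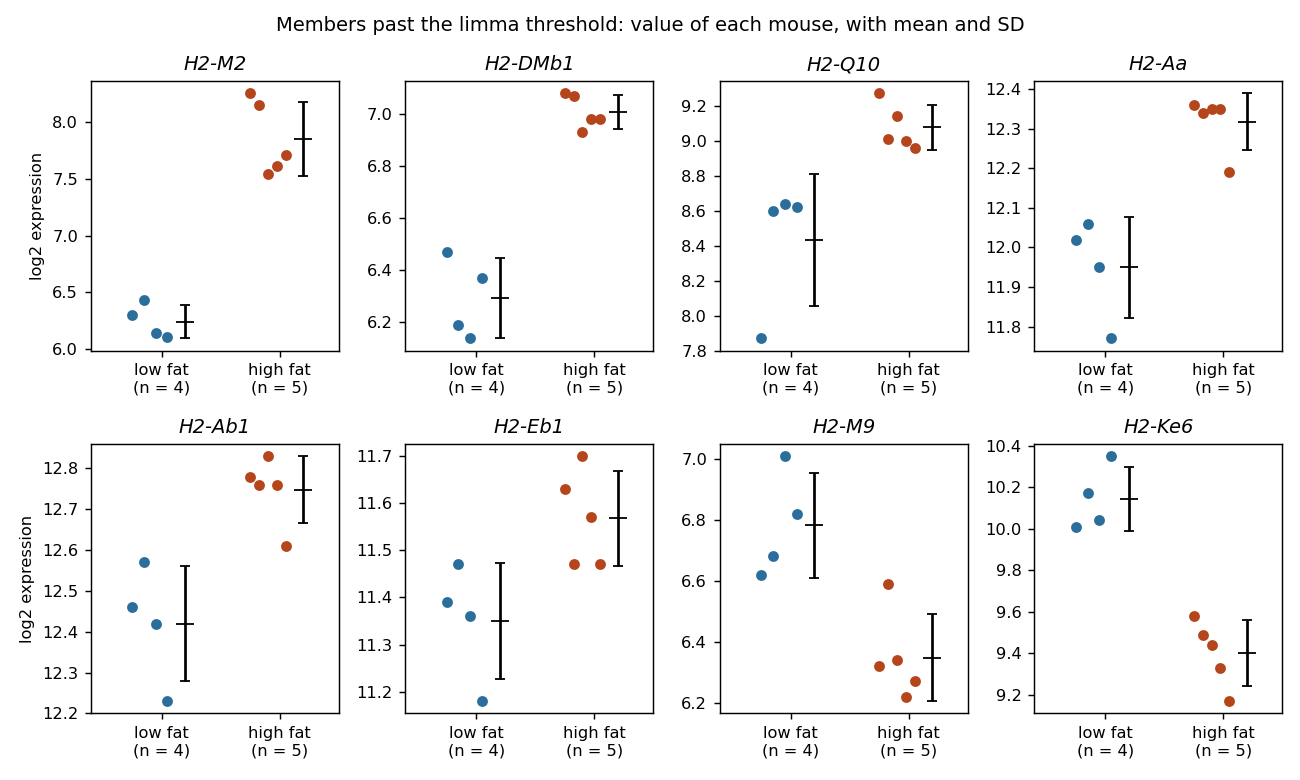
Log2 expression of each mouse (points) with the mean and SD (bars) for the 8 genes past the limma threshold, low fat (blue, n = 4) beside high fat (red, n = 5); each panel has its own vertical axis, which does not start at 0. The points of the diets overlap for H2-Eb1 and for no other of the 8, and low fat mouse 1 lies apart for H2-Q10 at 7.87.

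None of the 8 class I light chain, loading and immunoproteasome genes passed the test, beside 21.5% of all genes. Their median difference was -0.23, with B2m, whose level cannot be compared here, among the 8. Tap1 read 9.21, 9.16, 9.03, 9.10 and 9.10 in high fat mice and 9.90, 10.34, 9.18 and 8.98 in low fat mice (-0.48, limma adjusted p = 0.194). Low fat mice 1 and 2 were high, and the other 2 low fat mice lay within or below the high fat range. Without low fat mouse 2 the difference was -0.23. Tap2 differed by -0.30 (limma adjusted p = 0.104) and Erap1, the trimming peptidase, by -0.31 (limma adjusted p = 0.152). Without low fat mouse 2 they differed by -0.18 and -0.15, whereas without low fat mouse 3 Tap2 passed (-0.38, limma adjusted p = 0.0496). Tapbp differed by 0.04 (95% confidence interval -0.12 to 0.21), and its second, dimmer probe set by -0.18.

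The immunoproteasome subunits replace constitutive catalytic subunits of the proteasome. Psmb9 read 8.55, 8.41, 8.32, 8.28 and 8.26 in high fat mice and 9.16, 9.36, 8.31 and 8.38 in low fat mice (-0.44, limma adjusted p = 0.178). Again low fat mice 1 and 2 were high, and without low fat mouse 2 the difference was -0.25. Psmb8 and Psmb10 differed by -0.16 and -0.06, and without low fat mouse 2 by 0.03 and 0.11, so their sign rested on that mouse.

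Nlrc5, the class I transactivator, read 8.22, 8.11, 7.95, 7.99 and 7.90 in high fat mice and 8.64, 9.05, 8.28 and 8.07 in low fat mice (-0.48, limma adjusted p = 0.0794). The groups overlapped by low fat mouse 4, without which Nlrc5 passed (-0.62, limma adjusted p = 0.0239), and without low fat mouse 2 the difference was -0.30 (limma adjusted p = 0.145). Each array centred on its median gave a call too (-0.52, limma adjusted p = 0.0468).

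Leaving B2m aside, all 8 of these genes, Nlrc5 included, were highest in low fat mouse 2. The share of all genes highest in that mouse was not determined. The SD of these genes was wider in the low fat than in the high fat group in 8 of 8, beside 12673 of all 22180 genes. The median SD was 0.39 against 0.1, and 0.1 against 0.08 over all genes. A high value in a single mouse also widens the SD of its group, so the wider SD is no separate result. The mean of 5 T cell markers was highest in low fat mice 2 (7.25) and 1 (7.18), and between 6.4 and 6.91 in the others. Smooth muscle markers were high in low fat mouse 2 as given above. The part of either in the levels of these genes was not tested. Without low fat mouse 2, the count over the 46 genes was the same: 6 higher and 2 lower.

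**Figure D4:**
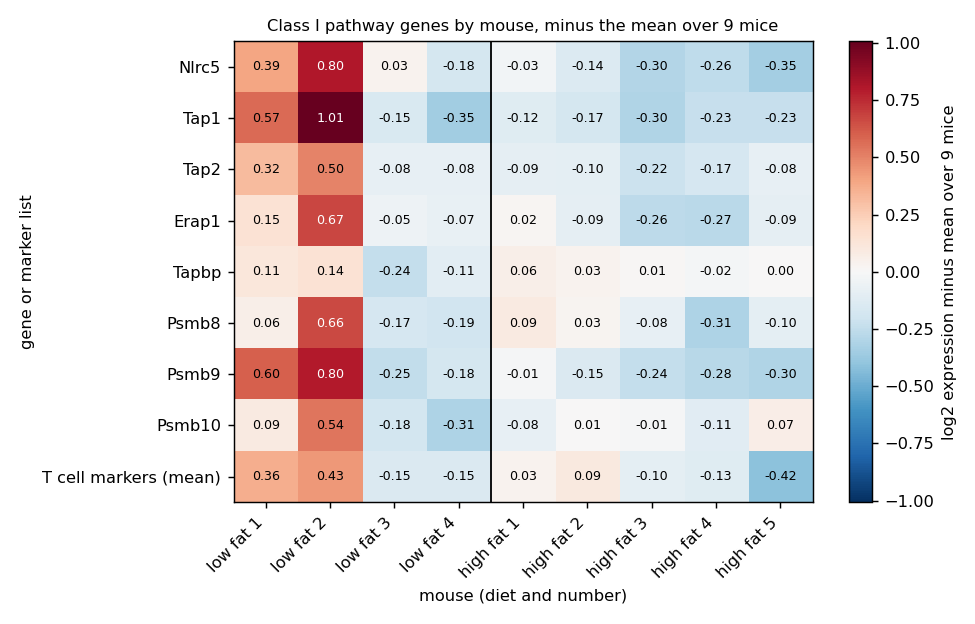
Class I pathway genes other than B2m, Nlrc5 and the T cell marker mean in each mouse, as the log2 value minus the mean over the 9 mice (colour and printed number); columns are mice, with low fat at the left of the line and high fat at the right. Every gene is highest in low fat mouse 2, and Tap1 and Psmb9 are also high in low fat mouse 1.

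B2m had the highest value of all rows of the table on 9 of 9 arrays, between 14.13 and 14.22. RMA makes the top of the scale nearly alike on all arrays, so whether B2m differed between the diets cannot be read from its difference of -0.01. Its upstream window is printed because it holds both an interferon response element, searched as GAAANNGAA, and a Y box core, in capitals.
B2m (chr2:122147537-122147686, plus strand): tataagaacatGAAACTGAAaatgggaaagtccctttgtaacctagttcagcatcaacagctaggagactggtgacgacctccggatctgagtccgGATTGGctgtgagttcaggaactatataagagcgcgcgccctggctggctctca
The interferon response element was found in 3 of the 36 windows, those of B2m, Erap1 and H2-T23, beside 7.13% of all windows. None of these 3 genes passed the test, beside 21.5% of all genes, with B2m, which cannot be compared here, among the 3. The interferon gamma gene Ifng did not pass either, with a difference of 0.00 (95% confidence interval -0.09 to 0.10). Its values of 6.20 to 6.35 lay below the median of every array. Whether Ifng was above background could not be determined, so its difference says nothing about interferon gamma. A kappa B core, GGGATTCCC, was found in 2 of 36 windows, both of H2-K1 and sharing 1 match because they overlap, beside 0.301% of all.

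Ciita, the class II transactivator, read 8.57, 8.40, 8.57, 8.44 and 8.34 in high fat mice and 8.38, 8.38, 8.15 and 8.05 in low fat mice. The groups overlapped, and its difference of 0.23 did not pass (limma adjusted p = 0.0833). Cd80 and Cd86, the costimulatory ligands of CD28 on T cells, differed by 0.29 and 0.18 (limma adjusted p = 0.139 and 0.143). Both were lowest in low fat mouse 2, at 7.67 and 7.63, and without it Cd80 differed by 0.16.

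H2-Ke6 carries an H2 symbol but codes for the 17-beta hydroxysteroid dehydrogenase Hsd17b8, an enzyme of mitochondrial fatty acid synthesis. It read 9.58, 9.49, 9.44, 9.33 and 9.17 in high fat mice and 10.01, 10.17, 10.04 and 10.35 in low fat mice. This was 1.67-fold lower on the high fat diet (-0.74 ± 0.09 SE, limma adjusted p = 0.000484), with no overlap.

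Whether partner genes differed from each other in their response to diet was tested on the difference of their log2 values within each mouse. Of 9 pairs tested, none passed after adjustment over the 9 (two-sided exact permutation test over every way to split the mice 5 and 4). The smallest p this test can give is 0.00794, which for 1 pair alone becomes 0.0714 after adjustment. H2-DMa minus H2-DMb1 was 3.78, 3.71, 3.89, 3.90 and 3.80 in high fat mice and 4.30, 4.63, 4.42 and 3.83 in low fat mice (-0.48, exact p = 0.0238, adjusted p = 0.214). The groups overlapped by low fat mouse 4. Psmb9 minus its constitutive counterpart Psmb6 differed by -0.55 (exact p = 0.0714, adjusted p = 0.214) and H2-Aa minus H2-Ab1 by 0.05 (exact p = 0.0635, adjusted p = 0.214). The adjusted p of the other 6 pairs, which were H2-Oa with H2-Ob, Tap1 with Tap2, Psmb8 with Psmb5, Psmb10 with Psmb7, B2m with H2-K1 and Cd80 with Cd86, ran from 0.5 to 0.968. These pairs are not shown to respond alike.

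Peptides for class II are cut in endosomes by proteases and a reductase coded outside the complex. All 7 genes of that list rose, beside 12.4% of all genes, with a median of 0.89. Cathepsin S (Ctss), which cleaves the invariant chain, read 11.70, 11.77, 11.79, 11.23 and 11.38 in high fat mice and 9.85, 9.61, 9.71 and 9.46 in low fat mice, a rise of 3.77-fold (limma adjusted p = 3.29e-05). Legumain (Lgmn), an endosomal protease, rose by 1.42, the thiol reductase Ifi30 by 1.27, and the cathepsins Ctsl, Ctsd and Ctsb by 0.89, 0.47 and 0.31. Sppl2a, the membrane protease that removes the last invariant chain fragment, rose by 0.22 and lost its call without high fat mice 1 and 2 (0.2, limma adjusted p = 0.0573). These enzymes also serve general lysosomal breakdown. All 7 were higher in every high fat mouse (20.7% of all genes had no overlap), as was the macrophage marker mean. The part of macrophage content in this was not tested.

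The factors of the class II promoter complex passed in 1 of 7 genes, beside 21.5% of all genes. This was Nfya, a subunit of NF-Y, which rose by 0.48 (limma adjusted p = 0.00465). Rfx5, a subunit of the RFX complex, differed by -0.10 (limma adjusted p = 0.151). In the interferon gamma list 3 of 8 measured genes rose, beside 12.4% of all genes. These were the transcription factor Irf8 by 1.13, the receptor chain Ifngr2 by 0.84 and the kinase Jak1 by 0.16. Jak1 missed the threshold without any one of high fat mouse 2 (0.16), 3 (0.17), 4 (0.15) or 5 (0.16), or low fat mouse 2 (0.14) or 4 (0.14). Irf1, a target of interferon gamma signalling, differed by -0.27 (limma adjusted p = 0.215), by -0.15 without low fat mouse 2, and by -0.40 without low fat mouse 3 (limma adjusted p = 0.0498).

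For the turnover of class II at the cell surface, 1 of 3 measured genes passed, beside 21.5% of all genes. Cd83, which protects class II from ubiquitination, read 8.54, 8.78, 8.65, 8.11 and 8.17 in high fat mice and 7.71, 7.30, 7.21 and 7.04 in low fat mice. It rose 2.20-fold (limma adjusted p = 0.00107) with no overlap. Marchf1, the ubiquitin ligase that removes class II from the surface, differed by 0.19 (limma adjusted p = 0.0561), and by 0.22 without low fat mouse 3 (limma adjusted p = 0.0446). None of 7 other costimulatory and inhibitory ligands passed, beside 21.5% of all genes. The smallest p among them were those of Cd40 (0.25, limma adjusted p = 0.121) and Tnfsf9 (0.20, limma adjusted p = 0.153), which were 0.13 without low fat mouse 2 and 0.10 without low fat mouse 1.

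In the class I pathway, the constitutive proteasome and its activator passed in 1 of 6 genes, beside 21.5% of all genes. This was the activator subunit Psme1, which fell by 0.36. Among 7 folding and trimming genes 2 rose, beside 12.4% of all genes. The chaperone calreticulin (Calr) and the disulfide isomerase Pdia3, both of the peptide-loading complex and of protein folding at large, each rose by 0.21. Pdia3 missed the threshold without any one of 6 mice: high fat mouse 1 (0.21), 2 (0.22) or 4 (0.22), or low fat mouse 1 (0.20), 3 (0.18) or 4 (0.20).

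Of 7 class I-like genes outside the complex, 2 rose and 3 fell, beside 12.4% and 9.13% of all genes. Cd1d1, which presents lipids to NKT cells, rose by 0.54 and Hfe, a regulator of iron uptake, by 0.58. Mr1, which presents vitamin B metabolites to MAIT cells, read 9.84, 9.86, 9.76, 9.91 and 9.82 in high fat mice and 10.46, 10.66, 10.27 and 10.49 in low fat mice, and fell by 0.63 (limma adjusted p = 0.000251). The neonatal Fc receptor Fcgrt fell by 0.28 and the lipid-mobilizing Azgp1 by 0.39. The groups did not overlap in 5 of the 7 genes, beside 20.7% of all genes. These are the same 5 that passed the threshold on the same values, so this is no separate result. Azgp1 missed the threshold without high fat mouse 3 (-0.39, limma adjusted p = 0.052) or low fat mouse 4 (-0.40, limma adjusted p = 0.0513). In high fat mice Azgp1 lay below the median of each array, and whether it was above background there could not be determined.

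**Figure D5:**
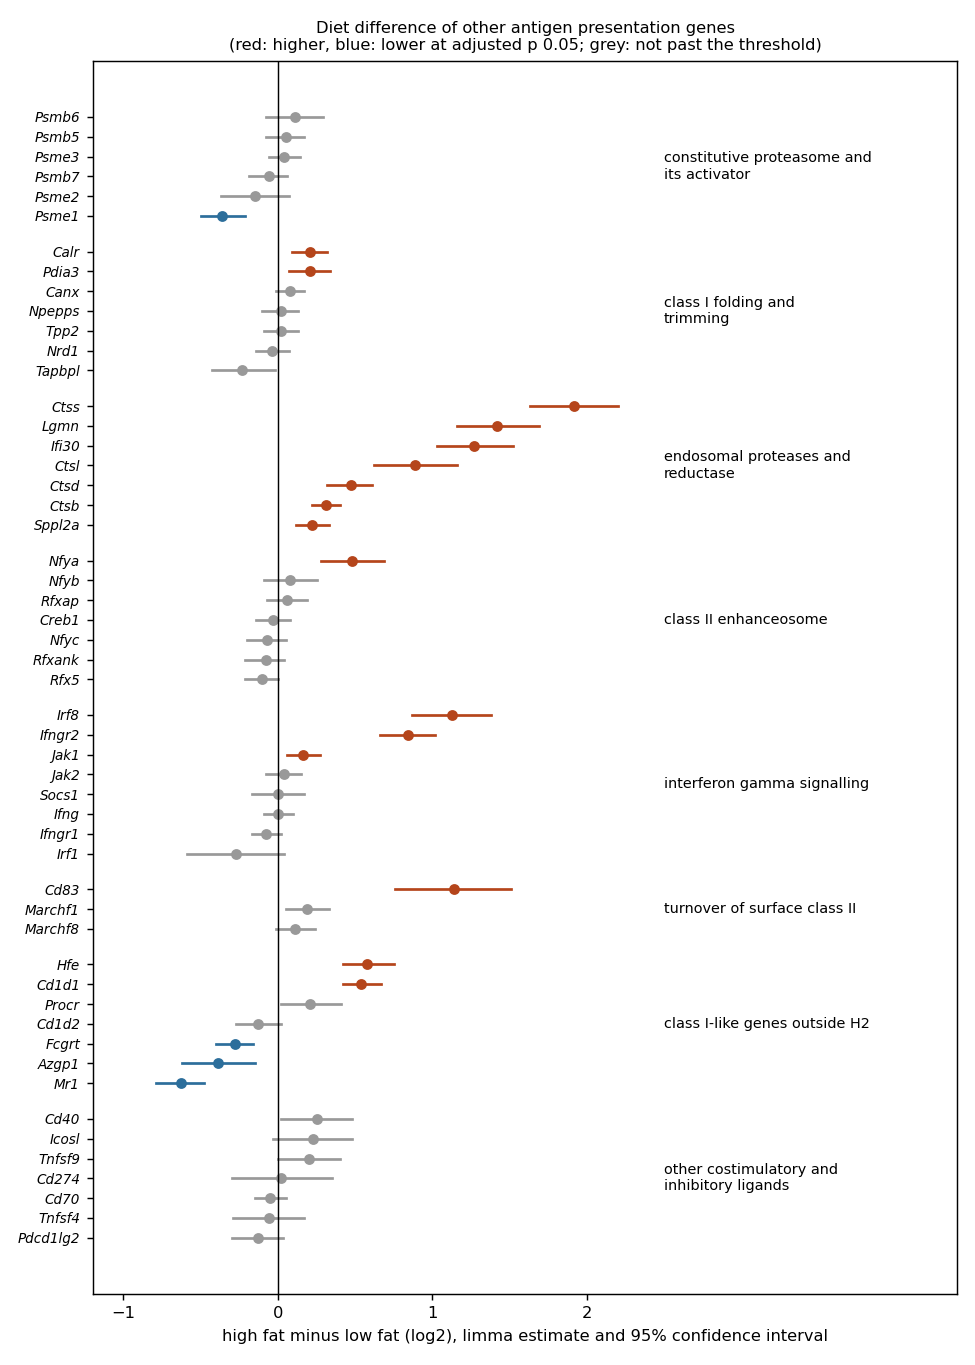
Difference between diets (high fat minus low fat, log2; limma estimate with its 95% confidence interval) of other genes of antigen presentation, in blocks by role; red points are higher and blue points lower at an adjusted p of 0.05. All 7 points of the endosomal proteases and reductase are red, from 0.22 to 1.92, and the class I-like genes have 2 red and 3 blue points.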

How the data were processed

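Whole periprostatic fat of 9 mice was hybridised to 1 array each. The deposited values are log2 expression, 1 value for each probe set and mouse. The authors used RMA, limma and R 3.5.0, per the submitters' processing notes. RMA corrects background, makes the distributions of the arrays more alike and summarises probes. The array medians of the deposited values still ran from 6.453 to 6.502. For annotation, scan dates and batches the sources used here give nothing, and no detection calls were used. The number of arrays limits the precision. Samples were grouped by the diet in the labels.

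Of 33793 rows, 23521 carry 1 gene symbol in the probe table, and the probe set with the highest mean was kept for each of 22180 genes. The diets were compared in limma 3.58.1 under R 4.3.3, with lmFit, eBayes and no covariate, on all 22180 genes, with Benjamini-Hochberg adjustment over all of them and a threshold of 0.05. SE is the moderated standard error. The procedure was tested on simulated data. Alternatives changed the normalization, centring, rows tested, dim genes, choice of probe set, variance model, array weights, mouse number as a block and threshold, and left out mice. Pairs of genes were tested by exact permutation. Of 11 planned pairs, 9 could be tested, since H2-D1 and Cd74 have no probe set of their own.

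The genes, lists, tests and naming were chosen with earlier results of these data known. All genes of the rule could be named, and from each accompanying list those past the threshold and up to 4 others with the smallest p. The accompanying lists cover the proteasome, folding, endosomal proteases, promoter factors, interferon gamma signalling, surface turnover, class I-like genes, costimulatory ligands and markers of 8 tissues or cell types. Mice share numbers across diets, but the correlations of their deviations from the group means were 0.0833, 0.126, 0.067 and 0.0479, so the numbers were not taken as pairs.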

Additional observations from a re-analysis of the deposited data

Results flagged for a closer look

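Within each diet, the values of each of the 46 genes were searched for a mouse far from the rest of its group by Dixon's criterion. Of 92 groups, 4 had such a mouse, and chance gives about 5% of groups. H2-Q10 was 7.87 in low fat mouse 1 and 8.60 to 8.64 in the other low fat mice. H2-Aa was 12.19 in high fat mouse 5 and 12.34 to 12.36 in the other high fat mice. H2-Ea, whose chain is not made in this strain, was 5.84 in high fat mouse 1 against 5.97 to 6.01, and H2-Pb was 5.08 in low fat mouse 3 against 5.21 to 5.23. The mice differ from gene to gene, and H2-Aa and H2-Q10 kept their calls without the mouse concerned.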

How the results depend on the processing

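Over the 18 settings, which include leaving out each of the 9 mice in turn, the number of genes called ran from 6 to 10 of 46, and 5 of the 8 called genes (H2-M2, H2-DMb1, H2-Aa, H2-M9 and H2-Ke6) kept their call and direction in all of them. With high fat mice 1 and 2, whose arrays had the widest SD, left out, 3 genes were called higher instead of 6. H2-Ab1, H2-Eb1 and H2-Q10 were lost, with fewer samples. Quantile normalization repeated across the arrays gave 4 genes called lower instead of 2, with Nlrc5 (-0.52) and Tap2 (-0.35) added; the cause was not tested. Leaving out single mice gave 7 to 8 called genes, 5 to 6 higher and 2 to 3 lower. H2-Eb1 also missed the threshold with all rows in the fit (adjusted p = 0.0643) and with arrays centred (0.17). Ciita passed with array weights (0.25, adjusted p = 0.0466). Of the 38 uncalled genes, 34 were never called, and none of the 8 calls changed direction. An adjusted p of 0.1 gave 10 calls. With the dimmest 25% of genes left out, 37 of the 46 remained and 8 were called. With the mouse number as a replicate block, over the 8 mice whose number is in both groups, 8 genes were called (5 higher and 3 lower); H2-Eb1 was lost and H2-Q5 gained (-0.42). A single pair could not pass in the pair tests, so the settings say nothing about the stability of those results. Of 30 other genes called, 24 kept their call in every setting. Limits are the number of arrays, the lack of detection calls for dim genes such as the H2-M10 family, the ceiling of the scale for B2m, near-identical copies in the Q and T regions, and tissue that mixes cell types.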
